A study of Homo sapiens with 4 samples.

Results

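The glycolysis genes described here are 10 genes that carry glucose into the cell and break it down to lactate: SLC2A1, HK2, ALDOA, TPI1, GAPDH, PGK1, PGAM1, ENO1, PKM and LDHA. They were taken by gene symbol from the 36601 genes listed for each library, and all 10 were found. The rule used symbols and no measured value. The 10 genes were set beside 79 nuclear genes of oxidative phosphorylation and 13 mitochondrially encoded genes, taken by symbol as well. All these lists were chosen with earlier results of these data known. The cells were BEAS-2B, an immortalized human bronchial epithelial line, exposed to gamma rays from a Cs-137 source. There were 4 single-cell libraries, 1 each for unirradiated control cells and for cells given 10 mGy, 100 mGy (the low-dose group) or 1 Gy (the high-dose group). With 1 library per dose, dose and library cannot be told apart, no test between doses was possible and no p-value is given. Cells of a library are not replicates, so the 95% intervals below cover counting error only.

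Glycolysis converts glucose to pyruvate in the cytosol, with a small direct yield of ATP, and lactate dehydrogenase turns pyruvate into lactate while restoring the NAD+ that the pathway consumes. Pyruvate that enters the mitochondrion instead feeds the tricarboxylic acid cycle, whose electrons pass along the complexes of oxidative phosphorylation. Immortalized lines in culture commonly use glycolysis heavily even with oxygen present. Many genes of the pathway are known targets of the hypoxia-inducible factors, which bind a core written ACGTG or GCGTG, and of MYC, which binds CACGTG.

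Promoters of 7 of the 10 members hold the letters of ACGTG or GCGTG, and the site nearest to the start is printed for each of the 6 that hold ACGTG in the 250 bases before a RefSeq transcription start (GRCh38.p14). Every line gives 25 bases, 5′ to 3′, on the strand of the gene, which is the plus strand for all 6. Capitals mark the core, and CACGT is ACGTG read on the opposite strand.
ALDOA, chr16:30064376-30064400, 111 bases before the start: cagggaggccACGTGatccgagtcc
GAPDH, chr12:6535174-6535198, 80 bases before the start: ctgcggggtcACGTGtcgcagagga
HK2, chr2:74834069-74834093, 48 bases before the start: tgggcgtgcgCACGTcactgatccg
LDHA, chr11:18394480-18394504, 73 bases before the start: tgggttcccgCACGTccgccggccc
PGK1, chrX:78104055-78104079, 183 bases before the start: acggaagccgCACGTctcactagta
TPI1, chr12:6868078-6868102, 17 bases before the start: tgcgccgccgCACGTagccccagac
Promoter windows were matched by symbol for all 10 members and for 63 of the 79 nuclear oxidative phosphorylation genes. On either strand, ACGTG stood in 9 of the 15 promoter windows of the members (60%), against 18.5% of all 35116 windows and 23.3% of the 10151 windows of genes expressed at 10 CPM or more. Counted per gene, 6 of the 10 members held it, against 30.5% of expressed genes. Of the 75 windows of nuclear oxidative phosphorylation genes, 21.3% held it. The longer CACGTG, which contains ACGTG on both strands, stood in 4 of the 15 member windows (26.7%), in 6.34% of all windows and in 8.56% of those of expressed genes. With GCGTG allowed as well, 11 of the 15 member windows (73.3%) held a core, against 43.2% of all windows and 57.8% of those of expressed genes. Counted per gene, that was 7 of the 10 members against 68.4% of expressed genes, a share near the background. SLC2A1, PGAM1 and PKM held neither core in these windows. Some genes have several windows (ALDOA has 3), windows of 1 gene can overlap, and a match describes letters and not a bound site. The 6 genes with a site include both the member furthest below control at low dose (HK2) and the 1 furthest above it (TPI1).

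Levels are UMIs of a gene summed over all barcodes of a library per 1000000 UMIs of that library (CPM). They are not divided by transcript length, so levels are compared between libraries and not between genes. The libraries held 11111 to 21514 barcodes and 211752280 to 285806026 UMIs, and the median barcode held 12417 to 19771 UMIs. Barcodes with under 1/3 of their library's median UMI count (low-UMI barcodes) numbered 19.6% in the control and 41.4%, 27.4% and 25.4% at 10 mGy, 100 mGy and 1 Gy, and they held 2.16% to 5.40% of the UMIs. Pairs of libraries had 76 to 134 barcode sequences in common, and no doublets were removed. The keratins KRT7, KRT8 and KRT18 stood at 219 to 645 CPM in every library, whereas KRT5, KRT19, EPCAM and CDH1, which also mark epithelium, reached at most 2.41 CPM. The fibroblast marker COL1A1 was at 20.5 to 25.6 CPM, and the other 15 markers of leukocytes, endothelium, fibroblasts and red cells reached at most 1.51 CPM. Ribosomal protein genes took 13.9% of UMIs in the control and 14.0% at 1 Gy but 19.9% at 10 mGy and 21.7% at 100 mGy. A total without ribosomal protein and mitochondrially encoded genes is given below as an alternative. The part of ribosomal protein genes in the differences below was not tested otherwise.

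The libraries of the low-dose group differed from the control at most genes. Of the 8507 genes with a mean of at least 10 CPM, 15.4% were over 1.2-fold higher and 53% over 1.2-fold lower in the 10 mGy library. The 100 mGy library had 14% above and 58.9% below these bounds, and the 1 Gy library 1.28% and 0.846%. Against this, 1 of the 10 glycolysis genes was higher and 4 were lower at 10 mGy, 1 was higher and 5 were lower at 100 mGy, and all 10 lay between the bounds at 1 Gy. Read against genes of at least 10 CPM, the members' shares of lower genes were no greater, but the background depends on this floor. Among the 1779 genes of at least 100 CPM, a level that 7 of the members reach, 30.7% were higher and 37.1% lower at 10 mGy, and 30.9% and 39% at 100 mGy. The members' counts were therefore not read as differing from other genes in either direction. The members had median log2 ratios to control of -0.24, -0.20 and 0.06 with rising dose (10 mGy, 100 mGy and 1 Gy), beside -0.30, -0.38 and 0.02 over all 8507 genes. Scaling the libraries by the median of gene ratios shifted every gene upward at the low doses, so that the median over all genes came to -0.0029 at 10 mGy and 0.0005 at 100 mGy, and the members' median turned to 0.06 and 0.19. Relative to the median of genes of at least 10 CPM, 6 of the 10 members were higher at 10 mGy (GAPDH, PGK1, ENO1, LDHA, TPI1 and PGAM1), and at 100 mGy 8 were, all but HK2 and ALDOA. Genes of at least 100 CPM had medians of -0.06 and -0.07, and relative to these only GAPDH and TPI1 were higher at 10 mGy, and GAPDH, LDHA, TPI1 and PGAM1 at 100 mGy. Each member is therefore also given by its percentile, the share of the 8507 genes with a lower ratio to control. No scaling of a library by 1 factor changes it, but it depends on the floor of 10 CPM.

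Glucose enters through the transporter encoded by SLC2A1 (GLUT1), whose level was 54.2 CPM in the control and 39.7, 43.1 and 55.4 at 10 mGy, 100 mGy and 1 Gy. The 2 low-dose libraries were lower than the other two. Its ratios to control were 0.733 (95% interval 0.714 to 0.752) at 10 mGy, 0.794 (0.774 to 0.816) at 100 mGy and 1.02 (0.995 to 1.05) at 1 Gy, at percentiles 37.7, 53.9 and 54.9. With median of ratios scaling the sign at 100 mGy turned, to 0.05 on the log2 scale, and the 10 mGy value came inside the 1.2-fold bound (-0.15). A total without ribosomal protein and mitochondrially encoded genes gave -0.21 at 100 mGy, also inside it. Hexokinase 2, encoded by HK2 (chr2:74833981-74893359, plus strand, GRCh38), traps glucose as glucose 6-phosphate and is the inducible hexokinase of many growing cells. Its level was 18.0 CPM in the control and 8.24, 8.46 and 18.2 at 10 mGy, 100 mGy and 1 Gy. In both low-dose libraries this was far below the control, with ratios of 0.457 (0.434 to 0.481) and 0.470 (0.445 to 0.496), and at 1 Gy the ratio was 1.01 (0.964 to 1.05). HK2 was the lowest member in both low-dose libraries, at percentiles 1.79 and 5.57, and it stood at 48.2 at 1 Gy. Its mean reached 10 CPM only through the control and 1 Gy libraries, so the filter bears on its low-dose percentiles. HK2 stayed lower with median of ratios scaling, with log2 ratios of -0.83 and -0.71. HK2 made up 9.84% of HK1 plus HK2 UMIs in the control and 9.68% at 1 Gy, but 6.78% (95% interval 6.52 to 7.05) at 10 mGy and 7.47% (7.16 to 7.78) at 100 mGy, so the inducible form was lower against the common form too.

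Aldolase A, encoded by ALDOA (chr16:30064164-30070457, plus strand), cleaves fructose 1,6-bisphosphate into 2 sugars of 3 carbons. ALDOA was counted at 41.5 CPM in the control and 23.9, 23.4 and 46.2 at 10 mGy, 100 mGy and 1 Gy. The low-dose ratios were 0.577 (0.559 to 0.595) and 0.564 (0.545 to 0.583), and the ratio at 1 Gy was 1.11 (1.08 to 1.15). Its percentiles were 11.5, 16.9 and 89.8, so ALDOA was the member next to HK2 at low dose but among the upper genes at 1 Gy. In GENCODE 29, 75.2% of the last 500 exonic bases of ALDOA are shared with AC093512.2, a gene on the same strand, so the level of ALDOA is uncertain, and how reads there were assigned was not tested. AC093512.2 was itself at 0.225 to 0.458 CPM. Triose phosphate isomerase, encoded by TPI1 (chr12:6867119-6870948, plus strand), interconverts the 2 products. TPI1 stood at 584 CPM in the control and 724, 755 and 658 at 10 mGy, 100 mGy and 1 Gy. It was the only member higher than control by over 1.2-fold on the CPM scale, with ratios of 1.24 (1.230 to 1.248) and 1.29 (1.283 to 1.301) at low dose, and at 1 Gy the ratio was 1.13 (1.12 to 1.14). With the mean of UMIs scaled to 10000 per barcode the log2 ratio at 10 mGy was 0.20, inside the bound. Its percentiles of 86.5, 89.8 and 92.2 put it in the upper part of all genes at every dose. In unscaled UMIs per barcode, which fall with the smaller depth per barcode of the irradiated libraries, its log2 ratios turned to -0.22 and -0.27 at low dose.

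The enzyme of GAPDH (chr12:6533927-6538374, plus strand) oxidizes glyceraldehyde 3-phosphate, and the gene is widely used as a reference. Its level was 2208 CPM in the control and 2303, 2356 and 2273 at 10 mGy, 100 mGy and 1 Gy. On the CPM scale all 3 ratios were within 1.2-fold, at 1.04, 1.07 and 1.03. The percentiles, however, were 75.2 and 79.2 at low dose, where most genes were lower, and 59.2 at 1 Gy. With median of ratios scaling the log2 ratios of GAPDH were 0.36 at 10 mGy and 0.48 at 100 mGy, both past the 1.2-fold bound. GENCODE 29 names 62 GAPDH pseudogenes, and 0 of them were in the list of counted genes. The antisense gene AC006064.4 covers 84.4% of the last 500 exonic bases of GAPDH and was at 5.35 to 18.6 CPM, and the strand setting of the counting is not given in the sources used here. PGK1, whose enzyme forms the first ATP of the pathway, was at 287 CPM in the control and 265, 268 and 298 at 10 mGy, 100 mGy and 1 Gy. Its ratios of 0.921, 0.934 and 1.04 on the CPM scale and percentiles of 63.9, 69.5 and 63.4 spanned a narrow range. With median of ratios scaling its log2 ratios were 0.18 at 10 mGy and 0.29 at 100 mGy, the latter past the 1.2-fold bound. PGAM1 moves the phosphate of the product of PGK1's enzyme. It was at 188 CPM in the control and 173, 187 and 224 at 10 mGy, 100 mGy and 1 Gy. PGAM1 had the highest ratio of any member at 1 Gy, 1.19 (1.171 to 1.203), at percentile 98.3, which was still inside the 1.2-fold bound. At 100 mGy its ratio on the CPM scale was 0.993 (0.980 to 1.01), which counting error alone does not separate from the control. With median of ratios scaling the log2 ratio of PGAM1 at 100 mGy was 0.37, past the 1.2-fold bound. A total without ribosomal protein and mitochondrially encoded genes gave 0.11.

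Enolase 1, encoded by ENO1, makes phosphoenolpyruvate. ENO1 stood at 1684 CPM in the control and 1444, 1375 and 1755 at 10 mGy, 100 mGy and 1 Gy. Its ratios were 0.858, 0.816 and 1.04, and its percentiles were 56.3, 56.7 and 65.3. At the low doses these were near the middle of genes of at least 10 CPM. Its low-dose log2 ratios of -0.22 and -0.29 were, however, below the medians of genes of at least 100 CPM (-0.06 and -0.07). The pyruvate kinase gene PKM, which forms the last ATP, was at 1024 CPM in the control and 736, 797 and 1098 at 10 mGy, 100 mGy and 1 Gy. Its ratios were 0.719 (0.714 to 0.723), 0.778 (0.774 to 0.783) and 1.07 (1.07 to 1.08), with percentiles of 35.0, 51.6 and 77.8. PKM was thus lower by over 1.2-fold in both low-dose libraries and ENO1 in the 100 mGy library, and with median of ratios scaling both signs at 100 mGy turned, to log2 ratios of 0.09 for ENO1 and 0.02 for PKM. That scaling also put PKM inside the bound at 10 mGy (-0.18), and a total without ribosomal protein and mitochondrially encoded genes did so for PKM (-0.24) and ENO1 (-0.18) at 100 mGy. Gene counts do not separate the PKM1 and PKM2 splice forms.

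LDHA (chr11:18394388-18408425, plus strand), whose subunit makes lactate, was the only member with the low-dose libraries on opposite sides of the control on the CPM scale, and with median of ratios scaling it lay above the control in both (log2 ratios of 0.04 and 0.55). It stood at 545 CPM in the control and 456, 612 and 523 at 10 mGy, 100 mGy and 1 Gy. In CPM the lowest and the highest value were thus the 2 low-dose libraries, whereas with median of ratios scaling 1 Gy was lowest (a log2 ratio of -0.09). In CPM these libraries had ratios to control of 0.837 (0.830 to 0.843) and 1.12 (1.11 to 1.13), and percentiles of 53.5 and 82.5. At 1 Gy the ratio was 0.960 (0.952 to 0.967) and the percentile 24.2, the lowest of the members at that dose. The 100 mGy library was 1.34 times the 10 mGy library (1.33 to 1.35), a larger ratio than for any other member. LDHA made up 65.3% of LDHA plus LDHB UMIs in the control and 58.7%, 66.9% and 66.8% with rising dose. The 10 mGy library therefore stood apart in the balance of the 2 subunits, since LDHB, whose subunit favours the opposite direction, was at 290 CPM in the control and 321, 302 and 260 at the 3 doses.

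**Figure D1:**
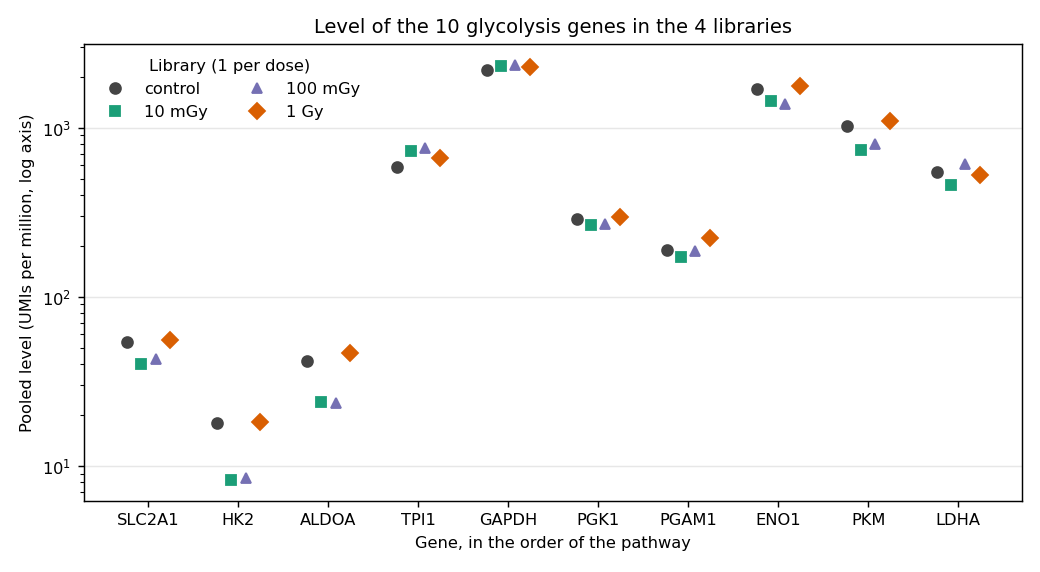
Level of each glycolysis gene in the 4 libraries, in CPM on a log axis shared by all genes, in pathway order and with 1 marker per library. HK2, ALDOA, PKM and SLC2A1 are lower in CPM at 10 and 100 mGy than in the control and at 1 Gy (with median of ratios scaling PKM and SLC2A1 are not at 100 mGy), TPI1 is higher, and LDHA is lowest at 10 mGy (at 1 Gy with median of ratios scaling) and highest at 100 mGy.

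In 7 of the 10 members both low-dose libraries lay below the control and the 1 Gy library, and in 2 (GAPDH and TPI1) both lay above them, on the CPM scale. Over all 8507 genes these orders were found in 67.6% and 20.7%, so the members' order by dose was near that of the other genes. The summed members took 0.664% of UMIs in the control and 0.617%, 0.643% and 0.695% with rising dose. GAPDH alone held 33.3%, 37.3%, 36.7% and 32.7% of the members' UMIs, and without it the low-dose libraries were lower, with 0.443%, 0.387%, 0.407% and 0.468%. Both sums are shares of all UMIs, and their order under other scalings was not tested.

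Oxidative phosphorylation gave the contrast. Its 79 nuclear genes had median log2 ratios of 0.65, 0.73 and 0.0039 with rising dose. Over 1.2-fold, 66 were higher and 2 lower at 10 mGy, 65 and 2 at 100 mGy, and 0 and 1 at 1 Gy. Over all genes of at least 10 CPM, 15.4% were higher and 53% lower at 10 mGy and 14% and 58.9% at 100 mGy, and of those of at least 100 CPM 30.7% and 30.9% were higher at these doses. The difference of the medians, members minus oxidative phosphorylation genes, was -0.89, -0.93 and 0.05. A single scaling factor per library cancels in this difference. With the mean of UMIs scaled to 10000 per barcode the difference was -0.99 at both low doses and -0.0048 at 1 Gy. All 10 glycolysis genes were below the lower quartile of the oxidative phosphorylation genes at both low doses (log2 ratios of 0.45 and 0.47), and 0 were at 1 Gy. TPI1, the highest member at low dose, was exceeded by 65 of the 79 genes at 10 mGy and by 63 at 100 mGy, and PGAM1, the highest at 1 Gy, by 2. In summed UMIs, nuclear oxidative phosphorylation genes took 1.69% in the control and 2.64%, 2.83% and 1.70% with rising dose. Glycolysis UMIs were thus 0.393 times oxidative phosphorylation UMIs in the control and 0.234, 0.227 and 0.409 times at the 3 doses, and without low-UMI barcodes 0.394, 0.237, 0.228 and 0.413.

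NDUFB4 and NDUFB3, small accessory subunits of complex I, were at 91.6 and 74.3 CPM in the control, and their ratios at 10 mGy were 2.10 and 2.08. NDUFS1, which carries iron-sulphur clusters of complex I, had a ratio of 0.776, and SDHA, the flavoprotein of complex II, had 0.757. These were the 2 nuclear genes lower by over 1.2-fold at 10 mGy. The 13 mitochondrially encoded genes, which encode subunits of complexes I, III, IV and V, had a median log2 ratio of -0.55 at 10 mGy and -0.70 at 100 mGy, and 10 of them were lower by over 1.2-fold at each low dose, against 53% and 58.9% of all genes. MT-CO2 (ratios of 0.910 and 0.929) and MT-ND3 (0.909 and 0.979) stayed inside the bound, and MT-ATP8 (0.382 and 0.181) and MT-ND6 (0.266 and 0.163) were lowest. The glycolysis median lay between those of both groups at low dose.

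**Figure D2:**
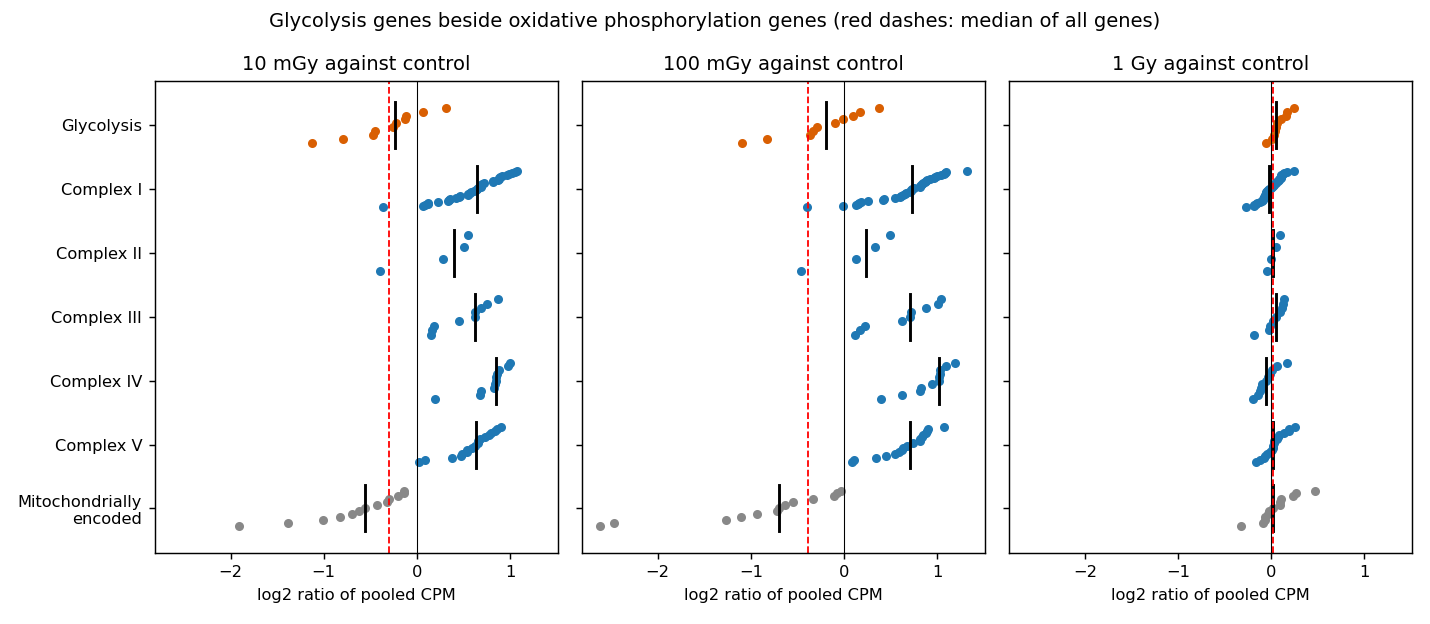
Log2 ratio to control at 10 mGy, 100 mGy and 1 Gy, 1 point per gene, for glycolysis genes, the nuclear genes of complexes I to V and mitochondrially encoded genes, on a shared horizontal scale. Black bars mark group medians and red dashes the median of all 8507 genes. At both low doses the 10 glycolysis genes lie below most nuclear oxidative phosphorylation genes, and at 1 Gy the groups overlap near 0.

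Exonic length, the bases covered by any annotated exon of a gene, moved with these ratios. Over the 8500 genes with a length in GENCODE 29, the log2 ratio to control and exonic length were related, by Spearman's rho, with -0.55 and -0.57 in the low-dose group but 0.03 at 1 Gy. The median exonic length was 5000 bases for the members and 2462 for nuclear oxidative phosphorylation genes. Among the 2125 shortest genes (131 to 3397 bases), the median log2 ratio was 0.15 over all genes and 0.67 over 53 oxidative phosphorylation genes at 10 mGy. These genes include the members GAPDH, PGAM1 and TPI1, of 2568 to 2981 bases, whose log2 ratios were 0.06, -0.13 and 0.31. Among these shortest genes the oxidative phosphorylation genes thus stood above the median gene, but lengths within the range were not matched. The part of length in the gap between both groups was not tested. Among the members themselves rho was -0.55, -0.39 and -0.60 at the 3 doses (n = 10 genes, which share their libraries).

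**Figure D3:**
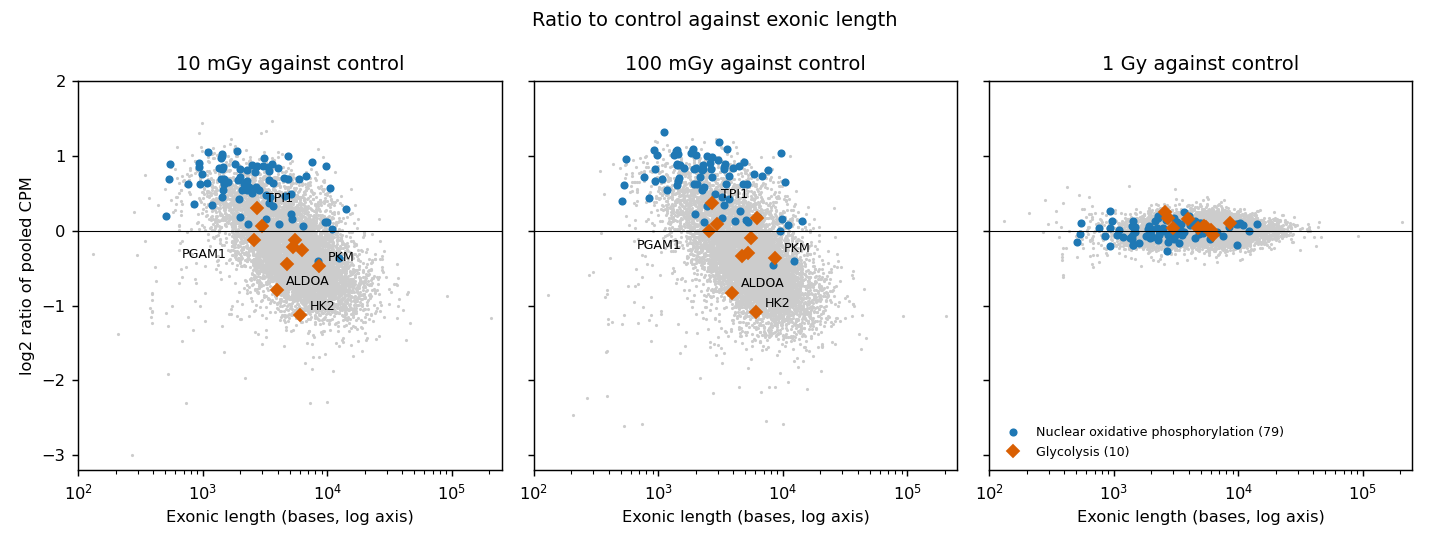
Log2 ratio to control against exonic length in bases (log axis) at each dose, 1 point per gene of at least 10 CPM, in grey, with glycolysis genes as orange diamonds and nuclear oxidative phosphorylation genes in blue. At the low doses longer genes lie lower (rho of -0.55 and -0.57 over 8500 genes) and at 1 Gy they do not (0.03).

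Among the 29 other listed genes of the pathway, 12 reached 10 CPM. Of these 12, 0 were higher and 5 lower by over 1.2-fold at 10 mGy, and 0 and 9 at 100 mGy, with median log2 ratios of -0.24 and -0.41. PFKFB3, whose product makes the activator of phosphofructokinase, had the lowest ratio at 10 mGy, with levels of 20.5 CPM in the control and 9.25, 8.30 and 19.96 at 10 mGy, 100 mGy and 1 Gy. It reached a mean of 10 CPM only through the control and 1 Gy libraries, as HK2 did, so the filter bears on its place among the 12. HK1, the common hexokinase, had ratios of 0.685, 0.635 and 1.03. ENO2, the neuronal enolase, had the highest ratio at 10 mGy, 1.12. Among 11 expressed targets of the hypoxia-inducible factors outside glycolysis, 1 was higher and 9 were lower at 10 mGy, and 1 and 7 at 100 mGy, with median log2 ratios of -0.75 and -0.49. The angiogenic factor VEGFA was at 47.9 CPM in the control and 21.1, 18.3 and 44.6 at 10 mGy, 100 mGy and 1 Gy. The histone demethylase KDM3A had ratios of 0.371, 0.389 and 0.997. FAM162A, a mitochondrial protein gene, had the highest ratio at 10 mGy, with 1.40, 1.64 and 0.885 at the 3 doses. ADM, the gene of the peptide hormone adrenomedullin, was next, with 1.03, 0.867 and 0.957. Over all genes 53% were lower at 10 mGy and 58.9% at 100 mGy.

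Across single barcodes the members were spread around their library's level. Without low-UMI barcodes, the members' share of a barcode's UMIs had a median of 0.656% in the control and 0.614%, 0.632% and 0.690% with rising dose. The range from the 5th to the 95th percentile was 0.520% to 0.845% in the control and 0.489% to 0.764% at 10 mGy, so the libraries overlapped widely. For oxidative phosphorylation the same range was 1.43% to 2.02% in the control and 2.18% to 3.15% at 10 mGy, and these did not overlap. In low-UMI barcodes the members' median share was 0.694%, 0.597%, 0.578% and 0.704%. The median share of oxidative phosphorylation in these barcodes was 1.90%, 3.18%, 3.31% and 2.33%. Its ranges there did overlap, at 1.09% to 2.91% in the control and 2.43% to 3.98% at 10 mGy.

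**Figure D4:**
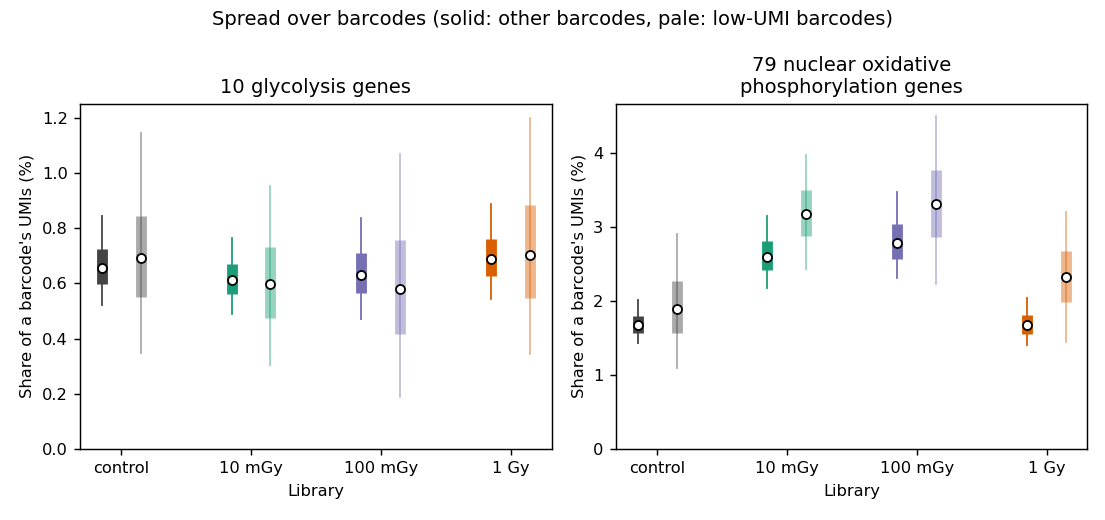
Share of a barcode's UMIs (percent) held by the 10 glycolysis genes and by nuclear oxidative phosphorylation genes, per library, in low-UMI barcodes (pale) and all others (solid), with circles at medians, boxes at quartiles and lines from the 5th to the 95th percentile. Glycolysis shares overlap between all 4 libraries, and in solid colour the oxidative phosphorylation shares of the low-dose group lie above those of the control and of 1 Gy.

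After thinning each barcode to 5000 UMIs, which left out 2051 to 8953 shallower barcodes per library, HK2 was seen in 8.43% of the control's barcodes and in 4.08%, 3.94% and 8.64% with rising dose. Without thinning the control and 10 mGy shares were 26.3% and 9.67% over every barcode, low-UMI ones included. Without low-UMI barcodes they were 31.7% and 15.5%. The libraries hold 1 cell line, so no cell type without HK2 was there to give the background of free RNA. GAPDH had a UMI in every thinned barcode. Its variance over its mean was 1.43 in the control and 1.32, 1.52 and 1.34 at 10 mGy, 100 mGy and 1 Gy, the highest of the members in each library, where counting alone gives about 1. The lowest value of any member ranged from 0.978 to 1.01 over the libraries. Variance over mean depends on how many UMIs a gene has, so it does not rank the members by spread. As standard deviation over mean, GAPDH was the lowest member in the thinned control, at 35.8% (29.9% from counting alone). ALDOA was at 218% there (219% from counting alone).

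The members varied together only weakly from barcode to barcode. The correlation of each member with the sum of the other 9, on log-scaled UMIs in barcodes that were not low-UMI (8937 to 14477 per library), ran from -0.03 to 0.31. The highest value was 0.14 after thinning and 0.16 over every barcode, so the size of r depends on depth and on the barcodes taken. For GAPDH the Pearson r was 0.31 in the control and 0.19, 0.27 and 0.26 at 10 mGy, 100 mGy and 1 Gy, and for LDHA it was 0.29, 0.12, 0.21 and 0.19. All 10 members had their lowest r at 10 mGy, against 9 of 10 after thinning and 6 of 10 over every barcode. By the lowest r over the 4 libraries, the pair that varied together most was GAPDH and TPI1, from 0.19 to 0.24, and over every barcode it was PKM and TPI1, from 0.16 to 0.27. Values within a library share its depth and its total, and these correlations are descriptions only. The summed members had an r of 0.11 to 0.21 with nuclear oxidative phosphorylation and of -0.26 to -0.21 with mitochondrially encoded genes. Over every barcode, low-UMI ones included, the r with oxidative phosphorylation was 0.11 in the control but -0.06, -0.07 and -0.02 in the irradiated libraries, and the r with mitochondrially encoded genes was -0.25 in the control but -0.05, -0.0061 and -0.08 in the irradiated ones. Among barcodes that were not low-UMI, in the control, the 1787 barcodes with the highest oxidative phosphorylation share held 0.689% glycolysis UMIs and the 1788 with the lowest held 0.646%. At 10 mGy the 2520 highest and the 2521 lowest held 0.629% and 0.608%. The higher oxidative phosphorylation share thus went with a slightly higher glycolysis share within these libraries. Between libraries, the low-dose group had the higher oxidative phosphorylation share and, counted against all UMIs, the lower glycolysis share. The lower glycolysis share is tied to that total, since median of ratios scaling placed the median member above the control in both low-dose libraries (by 0.06 and 0.19 in log2). The contrast within and between libraries is therefore not read as a result. The barcodes with the highest oxidative phosphorylation share were also shallower, with median UMIs of 19559 against 22985 in the control. The part of depth in these groups was not tested. After thinning to 5000 UMIs, the r of the summed members with oxidative phosphorylation was 0.12 in the control. It was 0.07, 0.09 and 0.06 at 10 mGy, 100 mGy and 1 Gy.

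Among 1772 genes of at least 100 CPM outside the members, the 10 whose log-scaled level was most like the summed members, by the lowest r over the 4 libraries, were KRT7 (0.29), NPM1 (0.24), BTF3 (0.20), MYL6 (0.19), KRT8 (0.18), TUBA1B (0.18), RACK1 (0.17), RPS14 (0.17), RPL6 (0.17) and KRT18 (0.16). They include the keratins that mark this line and translation genes. After thinning, 7 of the 10 stayed among the first 10, and with every barcode 5 did.

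**Figure D5:**
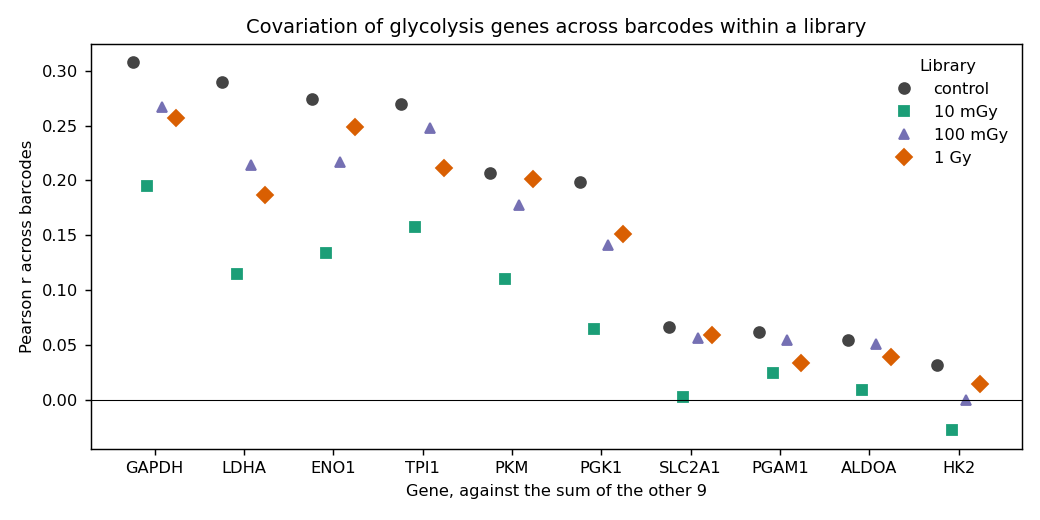
Pearson r of each glycolysis gene with the summed other 9 members, per library, across barcodes that were not low-UMI. Values run from -0.03 (HK2) to 0.31 (GAPDH), and all 10 genes have their lowest value at 10 mGy.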

How the data were processed

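The files deposited by the authors hold, for each barcode, raw UMI counts of every gene in 4 libraries made with 10x Chromium 3' v3 kits. Per the file headers they came from Cell Ranger 7.0.1, and the submitters' processing notes also name STAR and GRCh37. The gene annotation is not given in the sources used here. Every deposited barcode was used, with 211752280 to 285806026 UMIs per library. Counts were summed per library and scaled to 1000000. Shares have exact binomial (Clopper-Pearson) 95% intervals, and ratios have exact conditional ones. PCR duplicates were collapsed by UMI, and intervals cover counting error only. Ratios were read against 1.2-fold, the fold of the study, and against the genes with a mean of at least 10 CPM over the 4 libraries. Lengths and gene overlaps came from GENCODE 29 (GRCh38), matched by gene identifier for 8500 of 8507 genes, and promoters from RefSeq (GRCh38.p14). No coordinates were moved between builds. Named genes were all members and, from each other list, the 2 highest and 2 lowest at 10 mGy among genes of at least 10 CPM. AC093512.2, AC006064.4 and COL1A1 were named after their values were seen. The members and lists were chosen with earlier results of these data known. Scripts ran in Python 3.11.15 with numpy 2.4.6, scipy 1.17.1 and pandas 2.3.3, and ratios were tested on simulated data. Alternatives were another mean, 3 other scalings, 3 barcode filters, thinning to 5000 UMIs, a 1.5-fold threshold, and floors of 1 and 100 CPM for the genes the members were read against.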

Additional observations from a re-analysis of the deposited data

How the results depend on the processing

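No paired analysis was possible because each dose had 1 library, and for the same reason no replicate could be left out. The 3 other scalings use 1 factor per library, which cancels in the difference between glycolysis and nuclear oxidative phosphorylation medians. The fold threshold and the floors do not enter that difference. It kept its sign at both low doses under the other mean, the 3 barcode filters and thinning. It came to -0.99 at 10 mGy and -0.99 at 100 mGy with the mean of UMIs scaled to 10000 per barcode, to -0.86 at 10 mGy without low-UMI barcodes, to -0.92 at 100 mGy without barcodes of very high UMI count, and to -0.86 and -0.91 with thinning to 5000 UMIs. At 1 Gy it was -0.0048 with the mean of scaled UMIs. The members' median log2 ratio at 10 mGy was -0.28 with the mean of scaled UMIs, 0.062 with median of ratios scaling, -0.15 with a total that left out ribosomal protein and mitochondrially encoded genes, and -0.77 unscaled. At 100 mGy the last 3 gave 0.19, -0.078 and -0.84, and at 1 Gy median of ratios gave 0.025 and unscaled UMIs -0.43. The count of members higher than control at 10 mGy was 2 with median of ratios and 0 with the mean of scaled UMIs, unscaled or at 1.5-fold. The count lower was 2 with median of ratios, 9 unscaled and 2 at 1.5-fold. At 100 mGy, higher members numbered 5 with median of ratios, 2 with the reduced total, and 0 unscaled or at 1.5-fold, and lower members 2, 2, 10 and 2. At 1 Gy 9 were lower unscaled. Unscaled, the median log2 ratio over all genes of at least 10 CPM was itself -0.83, -1.03 and -0.47 with rising dose. With the reduced total it was -0.22 at 10 mGy and -0.27 at 100 mGy. Shares of all genes past the bounds are not given for these settings, so these counts are not read as a result about the members. HK2 and ALDOA were the 2 members lower with median of ratios. Signs of single genes turned with median of ratios for ENO1 (0.079), LDHA (0.044), PGAM1 (0.17) and PGK1 (0.18) at 10 mGy, for ENO1 (0.091), PKM (0.023), SLC2A1 (0.052), PGAM1 (0.37) and PGK1 (0.29) at 100 mGy, and for HK2 (-0.0195) and SLC2A1 (-0.0009) at 1 Gy. Unscaled, they turned for TPI1 (-0.22 and -0.27) and GAPDH (-0.47 and -0.55) at 10 and 100 mGy, for LDHA at 100 mGy (-0.48), and for the 9 members above control at 1 Gy. The reduced total turned PGAM1 (0.11) and PGK1 (0.019) at 100 mGy, and the mean of scaled UMIs turned HK2 (-0.0186) and SLC2A1 (-0.0082) at 1 Gy. The median over members of the lowest r was 0.087 as reported, 0.028 with every barcode and 0.029 with thinning. A floor of 100 CPM in place of 10 moved the share of all genes higher from 15.4% to 30.7% at 10 mGy and from 14% to 30.9% at 100 mGy, and the share lower from 53% to 37.1% and from 58.9% to 39%, and a floor of 1 CPM gave 15.2%, 12.6%, 53.4% and 60.9%. The count of lower members at low dose depends on the scaling, and 1 library per dose limits every statement about dose.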

Other observations

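Of 10 expressed genes of pyruvate entry into the mitochondrion, 3 were higher and 3 lower by over 1.2-fold at 10 mGy, and 3 and 5 at 100 mGy. MPC2, a subunit of the pyruvate carrier, was at 138 CPM in the control and 212, 200 and 124 at 10 mGy, 100 mGy and 1 Gy. PDK1, a kinase that restrains pyruvate dehydrogenase, was at 25.02, 9.86, 11.4 and 24.1 CPM, with percentiles of 0.517 and 4.48 at low dose. DLAT, a subunit of pyruvate dehydrogenase, had ratios of 0.633 and 0.742, and PDK2, another such kinase, 1.34 and 1.27.

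Of the 7 pentose phosphate genes, 2 were higher and 2 lower at 10 mGy, and 1 and 2 at 100 mGy. PGLS, which hydrolyses the lactone of the oxidative branch, had ratios of 1.47 at both low doses, TALDO1 (transaldolase) had 1.27 and 1.19, RPE (an epimerase) 0.823 and 0.803, and the transketolase TKT 0.805 and 0.719. Of the 13 tricarboxylic acid cycle genes, 1 was higher and 7 lower at 100 mGy (median log2 ratio -0.30). At 10 mGy 2 were higher and 4 lower (median 0.0069), with IDH3B (1.36), a subunit of isocitrate dehydrogenase, and the malate dehydrogenase gene MDH2 (1.31) highest, and DLST (0.744), of the oxoglutarate dehydrogenase complex, and SUCLA2 (0.734), a subunit of succinyl-CoA ligase, lowest. Over all genes 15.4% were higher and 53% lower at 10 mGy, and 14% and 58.9% at 100 mGy.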
